A study of Mus musculus with 6 samples.

Results

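Expression of 10 genes was examined in tumor-associated macrophages (TAMs) sorted from ID8 tumors of WT and C5aR-/- mice: 8 genes that mark mast cells (Cma1, Mcpt4, Tpsb2, Tpsab1, Cpa3, Hdc, Ms4a2 and Fcer1a), together with Kit and Gata2. They are 10 of the 56980 genes in the deposited table and were selected by symbol with their measured levels in these libraries known, so their levels and differences are a description. They were part of the fit across all genes, but no test of them is read as a result. ID8 is a mouse ovarian cancer line derived from ovarian surface epithelium. Female WT C57BL/6 mice and C5aR-/- mice on the C57BL/6 background, 6 to 8 weeks old, received 5000000 ID8 cells into the peritoneal cavity, and tumors were taken after 2 months. Each group had 3 RNA-seq libraries, made from live CD45+CD11b+Ly6G-F4/80+ cells, with 1000000 cells sorted. The receptor was deleted in the host, with no cell-type-restricted Cre described, and the same tumor line was used in both groups. The labels do not say whether each library came from a separate mouse or a pool, so p-values measure only the spread between these libraries, which may be technical. A legend of the study counts more mice per group than the libraries analysed here.

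Mast cells are granulated cells of hematopoietic origin that mature in tissues, including the peritoneal cavity, and depend on the receptor KIT and its ligand for survival. Their granules store histamine together with proteases bound to serglycin, chiefly chymases, tryptases and carboxypeptidase A3, and the release of these contents follows crosslinking of IgE on the high-affinity receptor FcεRI. Cma1, Mcpt4, Tpsb2 and Cpa3 are typical of the connective tissue type of mouse mast cell, whereas Mcpt1 and Mcpt2 are typical of the mucosal type.

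Levels are TPM, a measure of transcript abundance scaled for gene length and to a sum of 1000000 in each library, and values are given for replicates 1, 2 and 3 in that order. TPM keep no sequencing depth, and the number of genes at 1 TPM or more was 14393 to 15015 per library. A gene listed at 0 may be a failed estimate, since 7 of 2797 abundant genes (at least 50 TPM in at least 4 libraries) were also listed at 0 in a library. For genes outside the 10, "fell" and "rose" mark an unadjusted limma p under 0.05 with a change of at least 2-fold, and the p printed is the one adjusted over all tested genes. In these bulk libraries the number of cells that carry a transcript and its amount per cell cannot be told apart, and the cells that carried the transcripts were not identified.

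C5ar1, the deleted receptor gene, was at 86.5, 37.3 and 16.2 TPM in WT TAMs and at 0.38, 0.11 and 0.05 TPM in C5aR-/- TAMs. The log2(TPM + 1) difference was -5.04 (SE 0.69), and these levels did not overlap, in the direction the genotype labels give. C5ar1 reached the 1 TPM filter in WT libraries alone, so no call is read from it. The macrophage gene Adgre1, which encodes F4/80, was at 114, 45.8 and 25.4 TPM in WT and at 91.1, 40.1 and 27.9 TPM in C5aR-/- TAMs. Adgre1 was therefore present in all 6 libraries, with a spread inside each group that exceeded the difference between groups. The gate used no mast cell marker, and an F4/80+ gate would be expected to remove most mast cells.

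Of the 10 genes, 8 were lower in all 3 C5aR-/- libraries than in any WT library, Kit was higher in all 3, and Gata2 overlapped between groups. Among the 14776 genes with at least 1 TPM in at least 3 libraries, 12.5% were lower and 8.84% were higher in C5aR-/- TAMs with no overlap. The genes were chosen with this contrast known, so nothing is read from the comparison of these shares. The median log2(TPM + 1) difference of the 10 genes was -2.27, and that of all tested genes was -0.05. Tpsab1 and Ms4a2 did not reach the 1 TPM filter, and of the 8 genes that did, Mcpt4 and Fcer1a reached it in WT libraries alone.

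**Figure D1:**
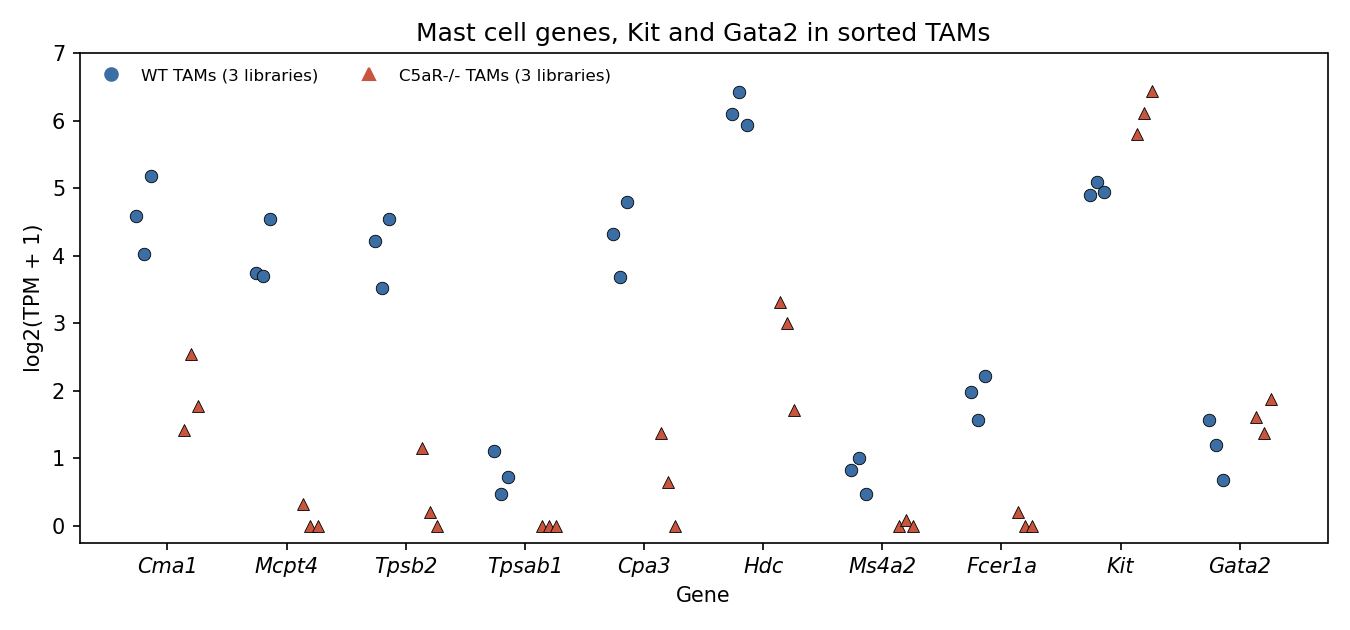
Level of each of the 10 genes as log2(TPM + 1) (vertical axis, a log scale) in the 3 WT libraries (circles) and the 3 C5aR-/- libraries (triangles), 1 point per library with replicates 1, 2 and 3 from left to right. The 8 mast cell genes are lower in the C5aR-/- libraries without overlap, Kit is higher without overlap, and Gata2 overlaps.

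Proteases made up 5 of the 10 genes. Cma1 encodes the chymase MCPT5 and was at 23.1, 15.2 and 35.3 TPM in WT and at 1.68, 4.85 and 2.43 TPM in C5aR-/- TAMs. The means were 24.6 ± 10.1 and 2.99 ± 1.66 TPM (SD, n = 3), 8.22-fold lower in C5aR-/- TAMs, and the log2(TPM + 1) difference was -2.68 (SE 0.47). Cma1 was the protease with the most signal left in the C5aR-/- libraries and the only one of the 5 above 1 TPM in all of them. Mcpt4, a chymase with chymotrypsin-like activity that binds heparin, was at 12.4, 12.0 and 22.4 TPM in WT TAMs. In C5aR-/- TAMs it was at 0.25 TPM in replicate 1 and listed at 0 in replicates 2 and 3. The log2(TPM + 1) difference of Mcpt4 was -3.89 (SE 0.30), a scale that understates the change of genes at low levels.

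The tryptase gene Tpsb2, which encodes MCPT6, was at 17.7, 10.5 and 22.2 TPM in WT TAMs and at 1.23 and 0.15 TPM and listed at 0 in C5aR-/- replicates 1, 2 and 3. Its log2(TPM + 1) difference was -3.64 (SE 0.47), and no C5aR-/- value came near the lowest WT value. Tpsab1, the tryptase gene that encodes MCPT7, was much lower throughout, at 1.15, 0.39 and 0.65 TPM in WT TAMs, and was listed at 0 in the 3 C5aR-/- libraries. C57BL/6 mice are known to carry a Tpsab1 allele that yields no mature MCPT7 protein.

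Cpa3 encodes the granule carboxypeptidase that is stored with the chymases. Its levels were 19.0, 11.9 and 26.7 TPM in WT TAMs, and 1.59 and 0.57 TPM and listed at 0 in C5aR-/- replicates 1, 2 and 3. The log2(TPM + 1) difference was -3.59 (SE 0.51), close to those of Tpsb2 and Mcpt4. The summed level of the 5 proteases was 73.3, 49.9 and 107 TPM in WT and 4.75, 5.57 and 2.43 TPM in C5aR-/- TAMs, 18.1-fold lower by the ratio of means.

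Cma1, Cpa3 and Tpsb2 kept close proportions in WT TAMs. The ratio of Cpa3 to Cma1 in TPM was 0.820, 0.779 and 0.758 in the WT libraries (0.785 ± 0.0317, SD, n = 3), although Cma1 itself differed 2.32-fold between the highest and lowest WT library. The ratio of Tpsb2 to Cma1 was 0.763, 0.687 and 0.628, and that of Mcpt4 to Cma1 was wider, at 0.536, 0.790 and 0.634. The ratio of Tpsab1 to Cma1 was the most variable of the 4, at 0.0497, 0.0256 and 0.0184, and Tpsab1 was highest in WT replicate 1 where the other proteases were highest in replicate 3. In C5aR-/- replicate 1 the ratio was 0.946 for Cpa3, above the WT range, 0.732 for Tpsb2, inside it, and 0.149 for Mcpt4, below it. In C5aR-/- replicate 2 the ratios of Cpa3 and Tpsb2 were 0.118 and 0.0309, and in replicate 3 both genes were listed at 0 while Cma1 was at 2.43 TPM. By these values Cma1 stood apart from the other proteases in 2 of the 3 C5aR-/- libraries. In those libraries the other proteases were under 1 TPM or listed at 0, which may be a failed estimate, so the ratios there are uncertain.

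Further mast cell proteases lie between Cma1 and Mcpt4 on chromosome 14, and these were at or near 0. Mcpt2, of the mucosal type, was at 0.44, 0.09 and 0.17 TPM in WT TAMs, Mcpt1 was at 0.09 TPM in WT replicates 1 and 3, and both were listed at 0 in every other library. Cma2 was at 0.12 TPM in WT replicate 1 and listed at 0 elsewhere, and Mcpt9 was listed at 0 in all 6 libraries. The chymase signal thus came from Cma1 and Mcpt4, the connective tissue type genes. Mrgprb1, a receptor gene of the family that includes the connective tissue mast cell receptor Mrgprb2, was at 0.97, 0.62 and 0.77 TPM in WT TAMs. In C5aR-/- TAMs Mrgprb1 was at 0.12 TPM in replicate 1 and listed at 0 in the others, the same direction as the proteases but below the 1 TPM filter. Mrgprb2 itself was near 0, at 0.15, 0.22 and 0.07 TPM in WT TAMs. It was at 0.05 TPM in C5aR-/- replicate 1 and listed at 0 in the others.

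Hdc encodes histidine decarboxylase, the enzyme that makes histamine, and had the highest WT level of the 10 genes. Its level was 67.2, 84.8 and 60.0 TPM in WT and 8.96, 7.03 and 2.29 TPM in C5aR-/- TAMs. The means were 70.7 ± 12.8 and 6.09 ± 3.43 TPM (SD, n = 3), 11.6-fold lower in C5aR-/- TAMs, with a log2(TPM + 1) difference of -3.47 (SE 0.51). Hdc did not follow the proteases inside the WT group. Cma1, Mcpt4, Tpsb2, Cpa3 and Fcer1a were each highest in WT replicate 3 and lowest in WT replicate 2, whereas Hdc was highest in replicate 2 and lowest in replicate 3. The ratio of Hdc to Cma1 accordingly ranged from 1.70 to 5.57 in WT TAMs. Histidine decarboxylase is also made by basophils and by immature neutrophil-lineage cells, whose genes are given further on.

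Fcer1a and Ms4a2 encode the IgE-binding alpha chain and the signal-amplifying beta chain of FcεRI. Fcer1a was at 2.94, 1.95 and 3.66 TPM in WT TAMs, and at 0.15 TPM in C5aR-/- replicate 1 and listed at 0 in replicates 2 and 3. Its ratio to Cma1 in WT TAMs was 0.127, 0.128 and 0.104, also a narrow range. Ms4a2 was at 0.77, 1.01 and 0.38 TPM in WT TAMs and at 0.06 TPM in C5aR-/- replicate 2, and it was listed at 0 in replicates 1 and 3. Both chains were therefore low in WT TAMs and close to or at 0 in C5aR-/- TAMs, with log2(TPM + 1) differences of -1.85 (SE 0.20) and -0.74 (SE 0.16). The gamma chain gene Fcer1g is shared with Fc receptors of macrophages and was at 273, 167 and 151 TPM in WT and 419, 251 and 174 TPM in C5aR-/- TAMs. The groups of Fcer1g overlapped (log2 difference 0.47, limma adjusted p = 0.60), so the gamma chain did not share the pattern of the alpha and beta chains. The Fcer1g difference was 0.13 without C5aR-/- replicate 1 and 0.77 without C5aR-/- replicate 3.

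Kit encodes the receptor tyrosine kinase on which mast cells depend, and it is also expressed by hematopoietic progenitors and some non-hematopoietic cells. It differed in the opposite direction from the granule genes. Its level was 28.9, 33.1 and 29.8 TPM in WT and 54.7, 68.0 and 85.4 TPM in C5aR-/- TAMs. The means were 30.6 ± 2.19 and 69.3 ± 15.4 TPM (SD, n = 3), 2.27-fold higher in C5aR-/- TAMs, with a log2(TPM + 1) difference of 1.13 (SE 0.19). Kit was also the steadiest of the 10 genes in WT TAMs, with a coefficient of variation of 7.16% against 41.2% for Cma1. The ratio of Kit to Cma1 was 1.25, 2.17 and 0.843 in WT TAMs and 32.5, 14.0 and 35.1 in C5aR-/- TAMs. Kit thus did not track mast cell proteases in these libraries, either between groups or inside the WT group.

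Without Kit and Gata2, an alternative chosen after seeing the data, the summed level of the 8 remaining genes was 144, 138 and 171 TPM in WT and 13.9, 12.7 and 4.72 TPM in C5aR-/- TAMs. This was 14.5-fold lower by the ratio of means, and the group means of the log2 sums differed by -4.00. With all 10 genes the sums were 175, 172 and 202 TPM and 70.6, 82.2 and 92.8 TPM, and the means of the log2 sums differed by only -1.17, because Kit alone held most of the C5aR-/- sum.

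The ligand gene of KIT was lower where its receptor gene was higher. Kitl, which encodes stem cell factor, was at 71.9, 83.1 and 54.8 TPM in WT and 39.1, 27.1 and 20.9 TPM in C5aR-/- TAMs. It fell by 1.26 on the log2(TPM + 1) scale (SE 0.26, limma adjusted p = 0.129). The ratio of Kit to Kitl was 0.402, 0.398 and 0.543 in WT TAMs and 1.40, 2.51 and 4.09 in C5aR-/- TAMs. These ratios could not overlap, because Kit was higher and Kitl lower without overlap, so they add no result. Il33, an alarmin that activates mast cells through the receptor ST2, was at 17.9, 22.6 and 12.7 TPM in WT and 3.81, 3.92 and 4.55 TPM in C5aR-/- TAMs. It fell by 1.85 (SE 0.24, limma adjusted p = 0.0666). The ST2 gene Il1rl1 was at 2.38, 2.48 and 1.79 TPM and 0.81, 0.79 and 0.52 TPM, lower without overlap. The ratio of its means was 3.14-fold, but on the log2(TPM + 1) scale it was under the 2-fold threshold (-0.91, limma adjusted p = 0.173), and with a pseudocount of 0.1 it was -1.53, past the unadjusted rule. Il1rl1 reached the filter in WT libraries alone, so no call is read from it. Il3 and Il9, cytokine genes of mast cell growth, were listed at 0 in all 6 libraries.

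**Figure D2:**
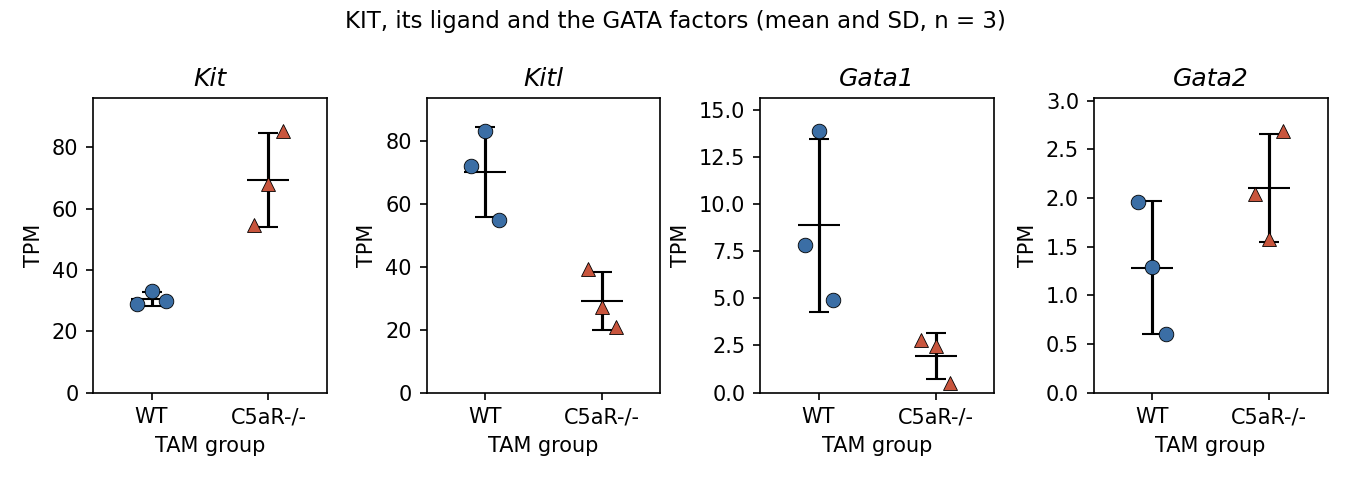
Levels in TPM (vertical axes, linear from 0) of Kit, its ligand gene Kitl, Gata1 and Gata2 in the 3 WT (circles) and 3 C5aR-/- (triangles) libraries, with the mean and SD of each group. Kit is higher and Kitl and Gata1 are lower in the C5aR-/- libraries without overlap, while Gata2 overlaps.

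Gata2 encodes a zinc finger transcription factor required for mast cell, basophil and progenitor development. Its level was 1.96, 1.29 and 0.60 TPM in WT and 2.04, 1.58 and 2.69 TPM in C5aR-/- TAMs. The means were 1.28 ± 0.680 and 2.10 ± 0.558 TPM (SD, n = 3), and the groups overlapped (log2(TPM + 1) difference 0.47, SE 0.30). Without WT replicate 1 or C5aR-/- replicate 2 Gata2 was higher without overlap. Its difference ranged from 0.24 to 0.68 when single libraries were left out. Gata2 was therefore not lower where the granule genes were. The related gene Gata1, which acts in mast cells, eosinophils, basophils and the erythroid and megakaryocyte lineages, was at 7.82, 13.9 and 4.89 TPM in WT and 2.81, 2.48 and 0.53 TPM in C5aR-/- TAMs. Gata1 fell by 1.75 (SE 0.48, limma adjusted p = 0.199), and within WT TAMs its order was that of Hdc, highest in replicate 2 and lowest in replicate 3. Mitf, a factor required for mast cell differentiation, was at 3.85, 2.26 and 1.60 TPM and 6.48, 4.17 and 2.40 TPM, with overlap (log2 difference 0.56, limma adjusted p = 0.542). The Mitf difference was 0.28 without C5aR-/- replicate 1 and 0.85 without C5aR-/- replicate 3.

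TPM are scaled for length, so the levels of the 10 genes can be set in order. In WT TAMs Hdc stood alone at the top, at 60.0 TPM or more. Kit, Cma1, Cpa3, Tpsb2 and Mcpt4 followed, and the ranges of the 4 proteases overlapped one another, with Kit inside the range of Cma1. Fcer1a and Gata2 came next with ranges that overlapped at their ends, and Tpsab1 and Ms4a2 were last, with ranges that overlapped each other and that of Gata2. In C5aR-/- TAMs Kit stood alone at the top, followed by Hdc and Cma1 with overlapping ranges, and the range of Gata2 overlapped that of Cma1.

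Across all 14776 tested genes, 419 (2.84%) were lower and 314 (2.13%) were higher in C5aR-/- TAMs at an unadjusted limma p under 0.05 with a 2-fold change. No gene (0.0%) passed with the adjusted p, the smallest limma adjusted p being 0.0666, whereas 2133 genes had an unadjusted p under 0.05 at any fold and 2 genes passed the adjusted threshold in limma without a variance trend (Gm10226 and Mcpt4, the latter selected and so not read as a result). Leaving out C5aR-/- replicate 1 gave 349 genes past the adjusted threshold and 1220 past the unadjusted one.

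The 6 lists of further mast cell genes held 72 tested genes of 93, each counted once, and 6 of the 72 fell and none rose by the unadjusted rule. Their median log2 difference was -0.06, beside -0.05 for all tested genes. Of the 72, 38 were lower and 34 higher by any amount. The 6 genes were Tph1, Ctsg, Rasgrp4, Gata1, Kitl and Il33, of which Tph1 reached the filter in WT libraries alone and had to differ to be tested, so its call is not read as a result.

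Of 13 tested genes for other proteases and granule components, 2 fell and none rose (median -0.18). Tph1, the tryptophan hydroxylase that starts serotonin synthesis in mouse mast cells, was at 1.06, 1.61 and 2.19 TPM in WT TAMs, and at 0.06 TPM in C5aR-/- replicate 1 and listed at 0 in replicates 2 and 3. Its log2 difference was -1.34 (SE 0.26, limma adjusted p = 0.117), in a fit it entered, like Mcpt4 and Fcer1a, through WT libraries alone. Ctsg, the cathepsin G gene of neutrophils and mast cells, was at 6.51, 13.3 and 2.62 TPM and 2.46, 1.70 and 0.16 TPM and fell by 1.72 (limma adjusted p = 0.284). The call for Ctsg was lost without WT replicate 1, where the log2 difference was nearly unchanged (-1.70), and without WT replicate 2 (-1.24) or C5aR-/- replicate 3 (-1.25). Srgn, the proteoglycan core that holds granule proteases and is shared with macrophages, had the highest mean of the list over the 6 libraries. Its levels were 647, 366 and 285 TPM and 602, 397 and 184 TPM, with overlap. Cd63, a membrane protein of granules and lysosomes, was at 309.8, 299 and 307 TPM and 537, 481 and 489.9 TPM, higher without overlap but under 2-fold (log2 difference 0.72, limma adjusted p = 0.0922). In C5aR-/- TAMs the mean of Cd63 was above that of Srgn (503 against 394 TPM). Rab27a (log2 difference -0.67) and Ctsc, which activates granule proteases (0.49), did not pass the test, although Rab27a did without C5aR-/- replicate 1 (-1.19) and was at -0.18 without replicate 3.

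Of 18 tested genes of IgE receptor and KIT signaling, 1 fell and none rose (median -0.06). Rasgrp4, a Ras activator of mast cells and other myeloid cells, was at 7.38, 7.63 and 4.84 TPM in WT and 1.80, 3.57 and 1.44 TPM in C5aR-/- TAMs. It fell by 1.25 (SE 0.31, limma adjusted p = 0.170). The adaptor genes Lat (log2 difference -0.58) and Gab2 (0.56) did not pass. The list of growth factors and activators had 4 tested genes, of which Kitl and Il33 fell, and Tgfb1 (0.59) and Csf2 (0.01) did not pass.

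No gene of the 12 tested mast cell receptors passed (median 0.10). In that list P2rx7, an ATP-gated channel, was higher without overlap but under 2-fold (log2 difference 0.62, limma adjusted p = 0.319, and 0.37 without C5aR-/- replicate 1), while Il9r (-0.95) and Cd48 (0.00) overlapped. Il9r passed the unadjusted rule without C5aR-/- replicate 1 (-1.58) and was at -0.47 without replicate 3. Of 10 tested genes of lipid mediator and amine synthesis, 1 was called lower (median -0.38), which was Tph1 again. Ptgs1, which makes the prostaglandin precursor, was the most abundant of these, at 132, 114 and 183 TPM in WT and 129.7, 129 and 101 TPM in C5aR-/- TAMs. Hpgds, the prostaglandin D2 synthase of mast cells and some macrophages, was at 3.75, 3.25 and 2.24 TPM and 13.8, 3.92 and 4.44 TPM. It was higher without overlap but did not pass (log2 difference 0.87, limma adjusted p = 0.431), and without C5aR-/- replicate 1, the highest, the difference was 0.36. Ltc4s (-0.91) and Alox5 (-0.66), of leukotriene synthesis, did not pass either. When single libraries were left out, the difference ranged from -1.52 to -0.28 for Ltc4s and from -1.18 to -0.08 for Alox5. Of 16 tested transcription factors, Gata1 fell and none rose (median -0.01), and Bhlhe40 (0.21), Lmo2 (0.58) and Lyl1 (0.32) did not pass. Lmo2 was at 0.21 without C5aR-/- replicate 1 and at 0.92, under 2-fold, without C5aR-/- replicate 3.

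**Figure D3:**
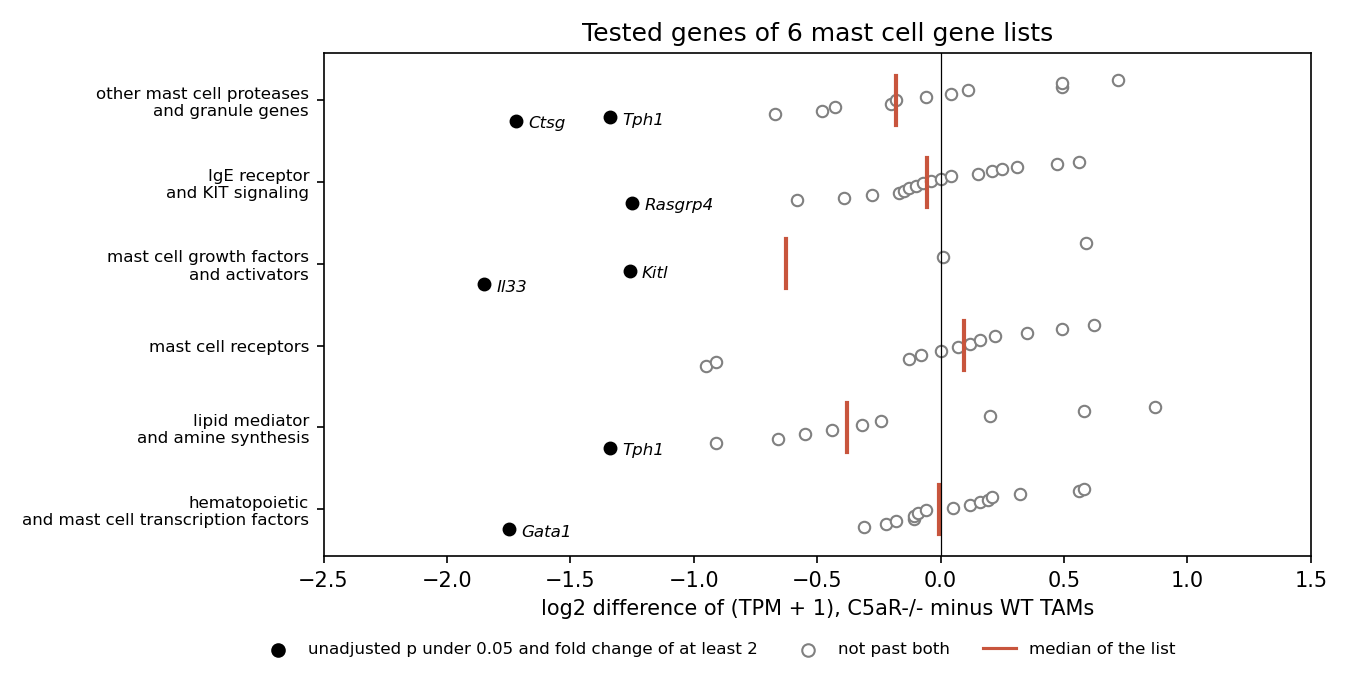
Difference in log2(TPM + 1), C5aR-/- minus WT TAMs (horizontal axis), of the tested genes in 6 lists of further mast cell genes, with 1 point per gene and a line at each list's median. Filled points passed the unadjusted p and the 2-fold change, and the 6 genes that did all lie below 0, Tph1 standing in 2 lists.

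Some markers of other granulocytes were also lower in C5aR-/- TAMs, while most of those tested did not pass. The Ly6G-negative gate would remove neutrophils, yet S100a9, the most abundant gene of the neutrophil list, was at 572, 1409 and 401 TPM in WT and 80.3, 216 and 10.7 TPM in C5aR-/- TAMs. Of 6 tested neutrophil genes, 2 fell, S100a9 by 3.54 (limma adjusted p = 0.224) and S100a8 by 3.12 (limma adjusted p = 0.224), and the median was -1.92. Retnlg, Camp (-2.10), Mpo (-1.75) and Elane (-1.52) overlapped and did not pass. The last 3 passed the unadjusted rule without WT replicate 3 (-2.86, -2.49 and -2.21), and Camp and Elane without C5aR-/- replicate 2 (-2.74 and -1.90). Without C5aR-/- replicate 3 Camp and Mpo were at -1.14 and -1.06 and did not pass. The summed level of the 7 listed neutrophil genes was 965, 2348 and 613 TPM and 208, 394 and 27.6 TPM. The gene of the gate marker itself, Ly6g, was at 0.62, 4.94 and 0.92 TPM and listed at 0, at 0.56 TPM and listed at 0 in C5aR-/- replicates 1, 2 and 3. In WT TAMs the neutrophil genes S100a8, S100a9, Retnlg, Mpo, Elane and Camp had the order of Hdc and Ms4a2, highest in replicate 2 and lowest in replicate 3, and not that of the proteases. Kitl and Il33 had this WT order as well. In C5aR-/- TAMs Hdc and Retnlg were highest in replicate 1, whereas S100a8, S100a9, Mpo, Elane and Camp were highest in replicate 2. The ratio of Hdc to S100a9 was 0.117, 0.0602 and 0.150 in WT TAMs and 0.112, 0.0325 and 0.214 in C5aR-/- TAMs, with overlap. The part of neutrophil RNA in the Hdc difference was not tested.

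Basophils share Fcer1a, Ms4a2, Hdc and Gata2 with mast cells. Their defining protease genes were low, Mcpt8 at 0.49, 1.77 and 0.25 TPM in WT TAMs and at 0.11 TPM in C5aR-/- replicate 2 and listed at 0 in the others. Prss34 was at 1.59, 2.25 and 1.21 TPM in WT TAMs and at 0.85 and 0.39 TPM and listed at 0 in C5aR-/- replicates 1, 2 and 3, lower without overlap but under 2-fold on the log2(TPM + 1) scale (-0.95, limma adjusted p = 0.264). It was past the unadjusted rule with a pseudocount of 0.1 (-2.27) and without C5aR-/- replicate 1 (-1.17), but Prss34 reached the filter in WT libraries alone, so no call is read from it. Mcpt8 and Prss34 followed the WT order of Hdc. Of 3 tested basophil genes 1 fell, Gata1. The median was that of Prss34 (-0.95), which had to differ to be tested, so this median is not read as a result. The summed level of the 7 listed genes was 29.7, 34.6 and 35.6 TPM and 22.4, 28.0 and 24.2 TPM, led by Il3ra, which overlapped (0.12). Of 2 tested eosinophil genes, Prg2, the granule major basic protein, fell by 1.10 (limma adjusted p = 0.224) and Siglecf (-0.13) did not pass, a median of -0.61. Prg2 was at 3.81, 6.0 and 2.20 TPM and 1.19, 1.44 and 1.06 TPM, and without WT replicate 2 its log2 difference was -0.82, under 2-fold. The summed level of the 6 listed eosinophil genes was 9.03, 13.3 and 4.40 TPM and 3.89, 7.03 and 2.01 TPM. No marker of the neutrophil, basophil or eosinophil list was at 0 in all 6 libraries, and the part of these cells in the lower FcεRI and Hdc levels was not tested.

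The proteases were set beside the macrophage signal as well. The summed level of 10 macrophage genes, led by Lyz2, was 8952, 3681 and 2584 TPM in WT and 8768, 5026 and 2568 TPM in C5aR-/- TAMs, and none of the 10 passed the test (median 0.47). Cd68 (log2 difference 0.83), Mertk (0.63) and Itgam (-0.64) differed most and overlapped between groups. Cd68 passed the unadjusted rule without C5aR-/- replicate 3 (1.27) and was at 0.34 without C5aR-/- replicate 1. Mertk was at 0.15 without C5aR-/- replicate 1 and at 1.07, not passing, without WT replicate 1. Macrophage genes were highest in WT replicate 1, where Cma1 was intermediate, so the ratio of Cma1 to Adgre1 ranged from 0.202 to 1.39 in WT TAMs and from 0.0184 to 0.121 in C5aR-/- TAMs. These ratios did not overlap between the groups, so the lower Cma1 was also seen per unit of the F4/80 transcript.

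Several epithelial and mesothelial genes, whose cells a CD45+ gate would remove, were abundant, and some of them differed between the groups beside Kit and Kitl. Krt8 had the highest mean over the 6 libraries of the epithelial genes, although Krt18 had the higher WT mean (508 against 460 TPM). Krt8 was at 465, 455 and 460.2 TPM in WT and 757.5, 624 and 743 TPM in C5aR-/- TAMs. It was higher without overlap but under 2-fold (log2 difference 0.62, limma adjusted p = 0.140). None of the 4 epithelial genes passed (median -0.10, with Krt7 at -0.69 and Epcam at -0.32), and their summed level was 1011, 1007 and 932 TPM and 1461, 1157 and 1231 TPM. The ratio of Kit to Krt8 was 0.0622, 0.0726 and 0.0646 in WT and 0.0721, 0.109 and 0.115 in C5aR-/- TAMs, so per unit of Krt8 the groups overlapped through C5aR-/- replicate 1. Of 5 mesothelial genes 2 fell (median -0.85), Lrrn4 by 1.96 (limma adjusted p = 0.0930) and Upk3b by 1.48 (limma adjusted p = 0.293). The call for Upk3b was lost without WT replicate 2 or 3, where the log2 difference was nearly unchanged (-1.42 and -1.41), and without C5aR-/- replicate 3 (-0.81). Msln was higher without overlap (0.88, limma adjusted p = 0.0922), Gpm6a was lower without overlap (-0.85, limma adjusted p = 0.322), and Wt1, the most abundant, overlapped (-0.10). Without C5aR-/- replicate 2, Gpm6a (-1.15) and Krt7 (-1.36) passed the unadjusted rule, and without replicate 3 Gpm6a was at -0.48. The summed mesothelial level was 963, 1079 and 1242 TPM and 983, 967 and 729 TPM. The ratio of Kitl to Upk3b was 0.248, 0.220 and 0.144 in WT and 0.190, 0.144 and 0.429 in C5aR-/- TAMs, with overlap. The ratio of Kitl to Wt1, at 0.213, 0.230 and 0.121 in WT and 0.0991, 0.0793 and 0.0631 in C5aR-/- TAMs, did not overlap. The ratios to Msln and Krt8 could not overlap, because Kitl was lower and both of these genes were higher without overlap. The part of these cells in the Kit and Kitl differences was not tested.

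Pearson correlation over the 6 libraries was used to find the tested genes most like the mean log2(TPM + 1) of the 10 genes, which was 3.33, 3.07 and 3.40 in WT and 1.52, 1.40 and 1.18 in C5aR-/- TAMs. The correlation mostly follows the gap between the groups, and 414 of 14768 genes had an r above 0.9. The 10 most alike were Cdh11 (r = 0.994), ENSMUSG00000120060, Mlxipl, Gxylt2, Gm34150, Phlda1, Glb1l, 2310033P09Rik, ENSMUSG00000121378 and Ric8b (r = 0.985), all lower in C5aR-/- TAMs without overlap. Of these, Cdh11, ENSMUSG00000120060 and Gm34150 reached the filter in WT libraries alone. Cdh11, a cadherin of mesenchymal cells, was at 2.59, 2.55 and 2.89 TPM and 0.56, 0.30 and 0.32 TPM, and Mlxipl, a glucose-responsive transcription factor, was at 49.3, 41.5 and 51.6 TPM and 24.2, 20.7 and 18.0 TPM. Their differences were smaller than those of Cma1, Mcpt4, Tpsb2 and Cpa3 and larger than that of Tpsab1, at -1.40 and -1.15 on the log2(TPM + 1) scale.

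The chymase genes lie near each other, as do the tryptase genes, and the other 6 genes lie on chromosomes of their own. In build GRCm38, Cma1 (ENSMUSG00000022225, chr14:55941451-55944675) and Mcpt4 (ENSMUSG00000061068, chr14:56059629-56062313) lie on the minus strand 115 kb apart, with the 4 protease genes Cma2, Mcpt1, Mcpt9 and Mcpt2 between them. Tpsb2 (ENSMUSG00000033825, chr17:25366305-25369098, plus strand) and Tpsab1 (ENSMUSG00000024173, chr17:25343245-25345562, minus strand) lie 20.7 kb apart with no protein-coding gene between them. The others are Cpa3 (ENSMUSG00000001865, chr3:20215620-20242181), Hdc (ENSMUSG00000027360, chr2:126593667-126619299), Ms4a2 (ENSMUSG00000024680, chr19:11615523-11623719) and Fcer1a (ENSMUSG00000005339, chr1:173221284-173227214) on the minus strand. Kit (ENSMUSG00000005672, chr5:75574916-75656722) and Gata2 (ENSMUSG00000015053, chr6:88193891-88207032) lie on the plus strand. The paired genes are paralogs, so reads could be split between copies, but few stretches were identical between genes. Of the stretches of 100 bases in each gene's transcripts, 1 of 1009 of Mcpt4 was shared with Cma2 and 13 of 3203 of Ms4a2 with Ms4a4b, and none of the other 8 genes shared any.

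GATA factors bind a motif searched here as AGATAA or AGATAG and, with another first base, as TGATAA or as TGATAG, and promoters of the 10 genes were searched on both strands. RefSeq promoter windows (300 bases, GRCm38.p6) were matched for 8 of the genes, not for Tpsb2 and Tpsab1. These 8 genes had 10 windows. The motif was present in 6 of the 10 windows, 1 for each of Cma1, Mcpt4, Cpa3, Hdc, Fcer1a and Ms4a2, and 29.8% of 32851 promoters of that length held it. The windows of Kit and Gata2 did not hold these letters. The E-box of MITF, searched as CACGTG or CATGTG and as the reverse complement CACATG, was in 1 of the 10 windows (Fcer1a) and in 20.4% of all promoters. A match describes the sequence and is not a measured binding site. The stretches around the GATA motif of the genes that were lower are shown 5′ to 3′ on the minus strand, where all 6 genes lie, with the motif in capitals as read on that strand. They lie at chr14:55944729-55944774 (Cma1, motif starting at -79 from the transcript start), chr14:56062388-56062433 (Mcpt4, -103), chr3:20242202-20242247 (Cpa3, -46), chr2:126618874-126618919 (Hdc, -221), chr1:173227296-173227341 (Fcer1a, -92) and chr19:11623720-11623776 (Ms4a2, -37 and -11). None overlaps an annotated exon, the Hdc stretch lies inside the annotated span of Hdc, and a further match of Ms4a2 at -224 is not shown.
Cma1: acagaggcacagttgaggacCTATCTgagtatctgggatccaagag
Mcpt4: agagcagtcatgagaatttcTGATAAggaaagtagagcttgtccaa
Cpa3: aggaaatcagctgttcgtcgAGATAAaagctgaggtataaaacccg
Hdc: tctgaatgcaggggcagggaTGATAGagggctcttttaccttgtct
Fcer1a: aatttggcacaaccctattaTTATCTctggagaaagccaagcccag
Ms4a2: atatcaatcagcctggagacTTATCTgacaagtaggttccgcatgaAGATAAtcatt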

How the data were processed

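RNA-seq of sorted TAMs was analysed in 3 WT and 3 C5aR-/- libraries, grouped by their labels. The deposited values were gene TPM that the authors computed from poly(A), strand-marked libraries. The submitters' processing notes name mm10, fastp, HISAT2, StringTie, RSEM and DESeq2 without versions, and which tool gave the TPM is not given in the sources used here. TPM keep no depth, so no count model was used. Columns of group means equalled the mean of the 3 libraries to within 0.0001 TPM and were not used. Genes with at least 1 TPM in at least 3 of 6 libraries (14776) were tested, two-sided, as log2(TPM + 1) with limma 3.58.1 (R 4.3.3, eBayes with a variance trend), with Benjamini-Hochberg adjustment over all of them. Genes were called where the change was at least 2-fold and the unadjusted p was under 0.05, and separately by the adjusted p. Fold changes on this scale understate those of low genes. Differences of the 10 genes are mean differences with their SE and no p. Scalings, pseudocount, filters, a replicate block, the variance trend and leaving out each library were varied.

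The 10 genes and the 16 gene lists (6 of further mast cell genes, 10 of other cell types) were chosen with earlier results of these data known. From each list the text names the most abundant gene, by the mean over the 6 libraries, and each gene called (at most 6). The text also names up to 3 more with the largest difference, besides C5ar1, the 10 genes and the 10 tested genes most like their mean. Other mast cell genes, ratios between genes and orders among libraries were chosen after their values were seen. Python 3.11.15, pandas 2.3.3, numpy 2.4.6 and matplotlib 3.10.9 were used, with GENCODE positions and transcripts on GRCm38 and RefSeq promoters.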

Additional observations from a re-analysis of the deposited data

How the results depend on the processing

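With 3 libraries a group and TPM without depth, calls rest on the unadjusted p, and values under 1 TPM set the size of several differences. Of 90 values of the 10 genes under alternatives, 84 moved by less than 1 SD, 6 moved further, and none changed sign. The 6 came with a pseudocount of 0.1 (Mcpt4 -6.63, Tpsb2 -5.65, Tpsab1 -2.95, Cpa3 -5.24, Ms4a2 -2.73, Fcer1a -4.40), which also moved the median of the 10 from -2.27 to -3.38. That median was -3.08 over the genes with at least 1 TPM in 3 libraries. The filter itself shapes this value, as it drops Tpsab1 (-0.77) and Ms4a2 (-0.74) and keeps Mcpt4 and Fcer1a through WT libraries alone. Without Kit and Gata2, chosen after seeing the data, the median was -3.08, and the log2 difference of the summed TPM was -4.00 in place of -1.17. Between 9 and 10 of the 10 genes had groups apart when single libraries were left out. Leaving out a library cannot make groups that are apart overlap, so this count could not fall and is not a check.

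The unadjusted rule gave 733 genes and 6 of the further mast cell genes. With a filter of 5 TPM these were 475 and 2 (Kitl and Il33), with fewer genes tested. Leaving out single libraries gave 518 to 1220 genes, the most without C5aR-/- replicate 1, and 4 to 8 of the further mast cell genes. The adjusted rule gave 0 genes, 2 without a variance trend (Gm10226 and Mcpt4), and 0 to 349 when single libraries were left out (349 without C5aR-/- replicate 1, 1, Gm28872, without replicate 2, and 3, Hdc, Spp1 and Muc16, without replicate 3). These were named after their values were seen, and for Mcpt4 and Hdc, which were selected with their levels known, the call is not a result. The cause was not tested. The labels do not say whether replicate numbers pair the libraries. Over all tested genes, same-numbered libraries correlated at 0.19, -0.011 and 0.27 in their deviations from the group means. Such a correlation cannot decide on pairing for part of the genes. Adgre1 and Itgam ran from highest in replicate 1 to lowest in replicate 3 in both groups, whereas Hdc and Cma1 differed in order between the groups. With the numbers as a replicate block 811 genes passed the unadjusted rule, 0 the adjusted rule, and 6 of the further mast cell genes. Camp, Mpo, Elane and Lyve1 passed in that fit and Areg did not.

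Of 744 values of C5ar1 and the named list genes, 685 kept direction and side of the threshold, 21 passed it newly, 14 lost it (Areg, Ctsg, Prg2 and Upk3b) and 24 reversed, none of them for a called gene. Untested fits are not among these values: C5ar1, Tph1, Il1rl1 and Prss34 were under the filter whichever WT library was left out, Csf2 and Kdr in some of these fits, and the called genes Tph1, Ctsg, Rasgrp4, Gata1, Prg2 and Areg at 5 TPM. Csf2 was -0.11 with a pseudocount of 0.1. When single libraries were left out, log2 differences ranged from -0.59 to 0.26 for Srgn, -0.04 to 0.25 for Meis1, -2.52 to 0.06 for Lyve1, -0.57 to 0.47 for Lyz2, -1.22 to 0.00 for Itgam, -0.17 to 0.36 for Csf2, -0.39 to 0.38 for Cd48, -0.06 to 0.34 for Il3ra, -0.59 to 0.20 for Siglecf, -0.14 to 0.55 for Bhlhe40, -0.92 to 1.35 for Pf4, -0.19 to 0.02 for Wt1, -0.15 to 0.78 for Lyl1, -1.36 to 0.09 for Krt7 and -1.20 to 0.07 for Lat. The cause was not tested.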

Other observations

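Other cell types that can express Kit, Gata2 or the IL-33 receptor were represented by 4 further lists. The CD45+CD11b+F4/80+ gate would be expected to remove most of these cells, endothelial cells and lymphoid cells among them, and their part in the differences was not tested. Of 5 tested genes of hematopoietic progenitors, none passed (median 0.10). Meis1, the most abundant, was at 22.2, 27.9 and 33.9 TPM in WT and 27.6, 26.6 and 36.2 TPM in C5aR-/- TAMs, with overlap, Procr overlapped as well (log2 difference 0.26), and Cd34 was lower without overlap but under 2-fold on the log2(TPM + 1) scale (-0.89, limma adjusted p = 0.21). Cd34 passed the unadjusted rule with a pseudocount of 0.1 (-1.35) and without WT replicate 1 (-1.02). The summed level of the 8 listed progenitor genes was 41.0, 49.9 and 60.8 TPM and 58.1, 48.0 and 62.0 TPM, and it overlapped between groups where Kit did not.

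Group 2 innate lymphoid cells also carry ST2 and had 5 tested genes, of which Areg rose by the unadjusted rule (log2 difference 1.18, limma adjusted p = 0.319) and none fell (median -0.46). Areg lost the call without WT replicate 2 (log2 difference 1.33), WT replicate 3 (0.70), C5aR-/- replicate 2 (1.21) or C5aR-/- replicate 3 (0.98), and also with a pseudocount of 0.1 (1.87) and with no filter. Il7r, the most abundant, was at -0.46 and Rora at -0.51, neither passing. Il7r passed without C5aR-/- replicate 1, at -1.01, and was at -0.03 without C5aR-/- replicate 3. The sums of the list were 16.9, 28.1 and 25.6 TPM and 29.6, 15.4 and 15.7 TPM. Of 5 endothelial genes none passed (median 0.27), with Lyve1 at -1.15, Kdr at -0.80 (passing without WT replicate 3, at -1.36) and Vwf at 0.42, and sums of 140, 48.3 and 18.6 TPM and 70.8, 30.4 and 13.2 TPM. Of 2 tested megakaryocyte and platelet genes none passed (median 0.01), with Pf4 at 0.27 and Itga2b at -0.25, and sums of 153, 71.8 and 19.9 TPM and 289, 52.9 and 19.8 TPM. No gene of these 4 lists was at 0 in all 6 libraries.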
